A study of Homo sapiens with 16 samples.

Results

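The genes described here are 10 genes of platelet granule formation and trafficking, taken as a named list: RAB27A, RAB27B, RAB32, RAB38, HPS1, HPS4, NBEAL2, LYST, VPS33B and UNC13D. They are 10 of the 35052 genes to which the deposited transcripts could be assigned. All 10 passed the filter on low counts, which left 17559 genes. Their RNA was measured in K562, an established human leukaemia cell line with erythroid features, carrying the wild-type genotype in every group. Phorbol 12-myristate 13-acetate (PMA), an activator of protein kinase C used to drive these cells towards a megakaryocyte-like state, was given at 25 nM. Sequencing covered total RNA without its ribosomal part, from cells before PMA (0 h, the untreated group), in the first day (after 0.5, 1.5, 3, 6 and 24 h) and later (after 48 h and after 72 h). Each of the 8 time points had 2 libraries, 16 in all, and the culture medium was replaced after 24 and 48 h. The labels do not say whether the 2 libraries of a time point came from separate cultures, so p-values measure the spread between these libraries, which may be technical. The same 0 h libraries serve every comparison against 0 h, so those comparisons are not independent of each other.

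Platelets carry alpha granules, which hold proteins, and dense granules, which hold small molecules, and both are built in megakaryocytes from late endosomal compartments. RAB32 and RAB38 are small GTPases that direct cargo to lysosome-related organelles, and HPS1 and HPS4 form BLOC-3, the exchange factor that activates both of them. RAB27A and RAB27B bring finished granules to the plasma membrane, where UNC13D (Munc13-4) binds them and primes fusion. NBEAL2 and LYST are large BEACH-domain proteins, the first needed for alpha granules and the second for the size of lysosome-related organelles, and VPS33B acts with VIPAS39 in sorting to alpha granules. Inherited loss of several of these genes causes bleeding disorders, among them Hermansky-Pudlak, gray platelet, Chediak-Higashi and ARC syndromes.

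The DNA before transcript starts of RAB27A, RAB27B and LYST is shown, since no other of the 10 genes had a listed start that met the rule below. RefSeq promoter windows (GRCh38.p14, 250 bases before to 50 after a start) were given for 6 of the 10 genes, at 17 starts. Those printed in full lie within 100 bases of the 5′ end of one of the gene's 4 most abundant transcripts and hold at most 30 exonic bases. They are written 5′ to 3′ on the gene's own strand, without the 50 bases after the start, and capitals mark letters that match a searched motif on either strand.
RAB27A chr15:55270923-55271172 (- strand), start near RAB27A-212: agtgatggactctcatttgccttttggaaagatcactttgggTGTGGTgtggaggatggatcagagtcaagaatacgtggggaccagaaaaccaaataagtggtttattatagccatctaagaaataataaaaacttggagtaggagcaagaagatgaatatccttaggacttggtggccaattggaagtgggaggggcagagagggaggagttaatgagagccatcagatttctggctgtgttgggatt
RAB27A chr15:55270400-55270649 (- strand), start near RAB27A-202: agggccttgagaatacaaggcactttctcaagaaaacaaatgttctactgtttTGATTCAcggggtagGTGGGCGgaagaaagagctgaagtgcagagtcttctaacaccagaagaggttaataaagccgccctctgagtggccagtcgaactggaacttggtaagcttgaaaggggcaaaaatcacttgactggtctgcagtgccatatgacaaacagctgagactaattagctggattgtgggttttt
LYST chr1:235883709-235883958 (- strand), start near LYST-211: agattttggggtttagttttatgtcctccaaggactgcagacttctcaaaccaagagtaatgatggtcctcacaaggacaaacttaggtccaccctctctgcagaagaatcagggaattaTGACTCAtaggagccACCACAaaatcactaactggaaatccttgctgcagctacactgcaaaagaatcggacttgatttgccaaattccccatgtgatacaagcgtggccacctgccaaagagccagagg
LYST chr1:235866907-235867156 (- strand), start near LYST-201: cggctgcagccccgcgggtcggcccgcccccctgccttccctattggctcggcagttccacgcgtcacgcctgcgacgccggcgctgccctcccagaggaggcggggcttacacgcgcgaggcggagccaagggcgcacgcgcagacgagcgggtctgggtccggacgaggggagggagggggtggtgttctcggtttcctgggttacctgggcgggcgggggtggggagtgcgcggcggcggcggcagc
RAB27B chr18:54717607-54717856 (+ strand), start near RAB27B-202: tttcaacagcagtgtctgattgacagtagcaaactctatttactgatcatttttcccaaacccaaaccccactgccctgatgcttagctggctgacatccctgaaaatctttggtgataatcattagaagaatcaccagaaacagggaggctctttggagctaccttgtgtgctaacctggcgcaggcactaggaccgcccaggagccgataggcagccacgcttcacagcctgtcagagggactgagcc
RAB27B chr18:54828329-54828357 (+ strand), from the window before another RefSeq start: actgcagcagtTGAGTCAccagcaagact
The letters searched, on both strands, were those of AP-1 sites, TGANTCA, of the NF-E2 core, TGCTGA, of GATA sites, AGATAA, and of RUNX sites, TGTGGT. They also included EGR1 sites, spelled GTGGGCG, the palindromic E-box, spelled CACGTG, and ETS sites, spelled CCGGAAG. The first pair can overlap in longer NF-E2 sites. Of 35116 RefSeq windows of the same length, 7.71% held the AP-1 letters, 13.1% the RUNX letters and 9.52% the EGR1 letters. The stretch before RAB27A-212 holds a RUNX match, and the bases just after that start, not printed, hold an AP-1 match. The stretch before RAB27A-202 holds an AP-1 and an EGR1 match, and the stretch before LYST-211 an AP-1 match with a RUNX match (read on the other strand) downstream of it. An AP-1 match is also in the 29 bases shown for RAB27B, which were cut out around that match. All 250 bases before that RefSeq start are annotated as exonic, so the window was not printed in full. The start lies 278 bases downstream of the 5′ end of RAB27B-201. The match is thus within the annotated span of this transcript, not before it. The stretches before LYST-201 and RAB27B-202 hold none of the letters searched. These matches describe the sequence only, since factor binding was not measured in the files used here.

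Library totals ran from 27285773 to 54056289 estimated reads. Replicate 2 at 0 h stood apart: its mean fragment length was 199.2 nt, the shortest of the 16 libraries, and its deviation from replicate 1 correlated with gene GC content at r = 0.714 across 9972 genes, against -0.372 to 0.558 at the other times (across genes, which are not independent replicates). All 10 erythroid markers had over 5 reads in every library, summing to between 1202.7 and 2359.6 CPM (read counts scaled to library size with TMM factors). The summed level of 14 megakaryocyte and platelet markers was 168.09 to 226.04 CPM at 0 h and 5526.7 to 6265.3 CPM at 72 h, carried mainly by THBS1 and ITGB3, while GP9, PF4, GP1BA and SELP had at most 5 reads in any library. The 6 monocyte or macrophage markers summed to 133.04 to 156.07 CPM at 0 h and 218.94 to 246.07 CPM at 72 h. Their part in the results below was not tested. In bulk RNA, fewer cells of a type and less RNA per cell cannot be told apart.

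By 72 h, 5 of the 10 genes were higher than at 0 h (RAB27B, RAB32, RAB38, HPS1 and LYST), 3 were lower (RAB27A, HPS4 and UNC13D), and NBEAL2 and VPS33B did not pass the test. In read counts, which are not per length, LYST rose 9.21-fold and RAB27A fell 2.62-fold, the ends of the range at that time. A gene is called here at a Benjamini-Hochberg adjusted p under 0.05 over all 17559 genes in edgeR's quasi-likelihood test. The 8 genes called at 72 h compare with 58.6% of all genes tested (31.7% higher and 26.9% lower), so the count is read against a background in which most genes changed. The median log2 fold change of the 10 genes at 72 h was 0.40, against -0.03 over all genes.

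**Figure D1:**
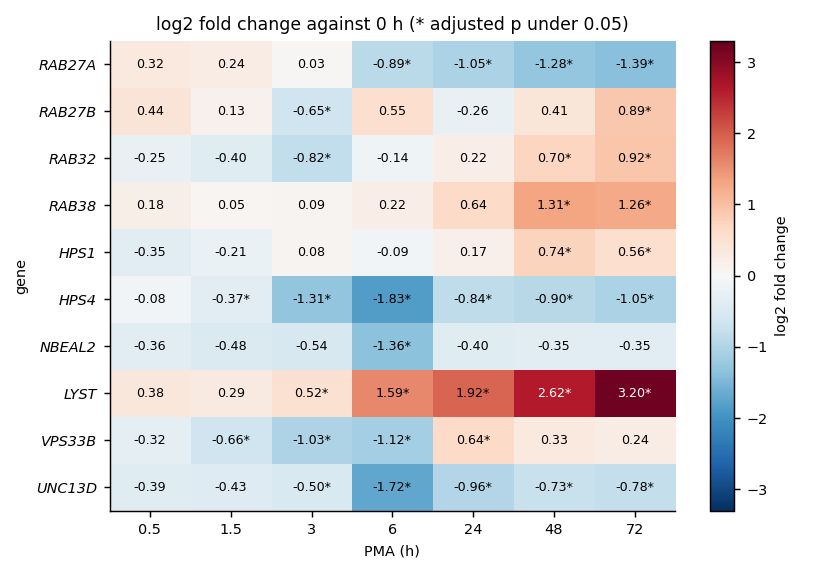
Log2 fold change of each of the 10 genes (rows) at 7 times of PMA treatment (columns, h) against 0 h, 2 libraries per time, with red for higher and blue for lower. Asterisks mark an adjusted p under 0.05 in edgeR. LYST deepens from 0.52 at 3 h to 3.20 at 72 h, while the blue cells of HPS4, UNC13D and NBEAL2 are darkest at 6 h.

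The directions were unlike at 3 and 6 h. At 1.5 h, 2 genes were called, both lower (VPS33B and HPS4), with 17.1% of all genes called and 8.05% lower. At 3 h, 6 were called with 42% of all genes: 5 lower (RAB27B, RAB32, VPS33B, HPS4 and UNC13D) and LYST higher, against 20.5% of all genes lower and 21.5% higher. At 6 h, 6 were again called with 57.2% of all genes, LYST higher (27.8% of all genes) and RAB27A, NBEAL2, VPS33B, HPS4 and UNC13D lower (29.4% of all genes). The median log2 fold change of the 10 at 6 h was -0.52 against 0.0011 over all genes. At 24 h, 2 were higher and 3 lower (58.3% of all genes were called, 31.7% higher and 26.6% lower). At 48 h, 4 were higher and 3 lower (54.3% of all genes, 30.2% higher and 24.1% lower). At 0.5 h edgeR called none of the 10 and 0.171% of all genes. An unadjusted p under 0.05 was found for 5 of the 10 and for 3907 of the 17559 genes tested. DESeq2 also called none of the 10. Without replicate 2 at 0 h none was called in the first 1.5 h, 3 were at 3 h, 6 were at 6 h, 5 at 24 h, 8 were at 48 h and 9 at 72 h. Without replicate 1 at 0 h, for example, the 0.5 h log2 fold change of RAB27A moved from 0.32 to 0.55 and that of VPS33B from -0.32 to -0.50. Values and calls in the first hours thus rest on which 0 h library is used. The share of all genes called without either 0 h library is not given here, so these counts are not a result about the 10 genes. Scaling to total counts in place of TMM moved the log2 fold changes of the 10 genes by a median of -0.29 at 3 h, -0.37 at 6 h and -0.25 at 24 h. It left none higher and 6 lower at 3 h, with 1 higher and 7 lower at 6 h. Over the whole course all 10 genes were called changed, as were 82.9% of all genes.

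**Figure D2:**
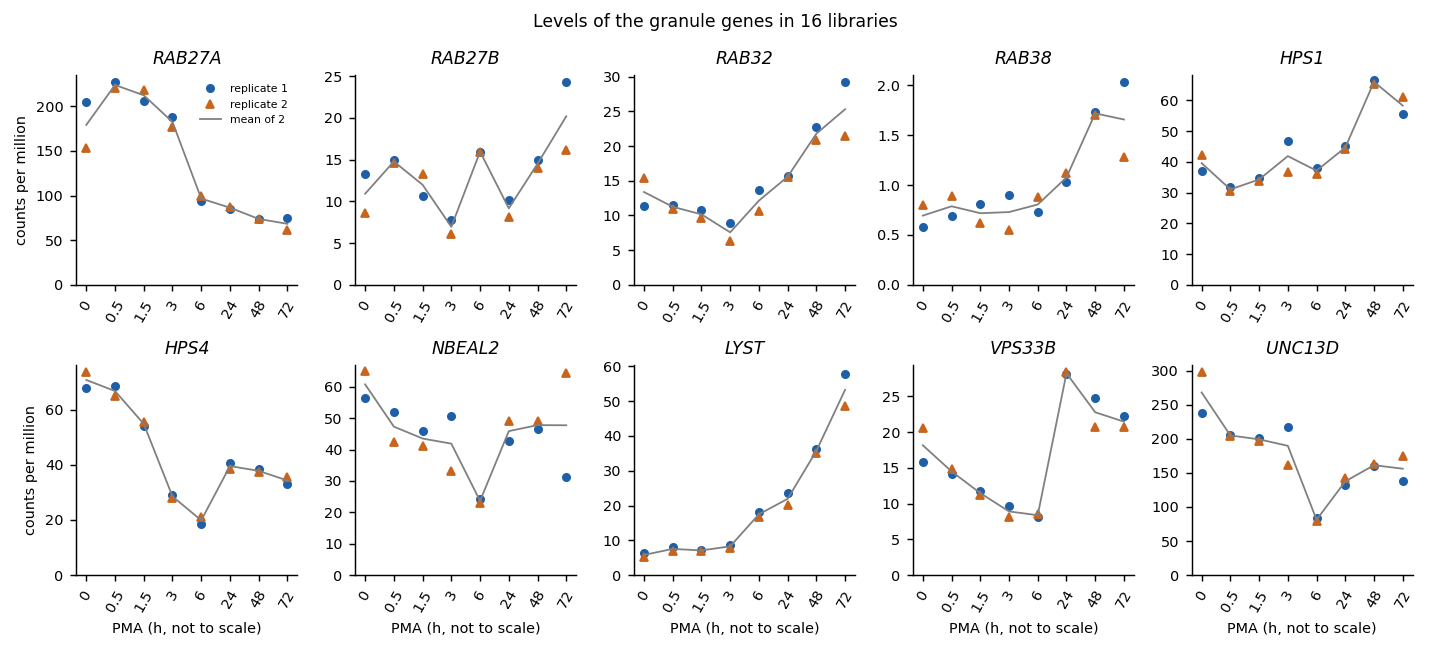
Level of each gene in CPM (vertical axes from 0, a scale per panel) against time of PMA treatment (h, spaced evenly, not to scale). Circles are replicate 1, triangles replicate 2 and the line their mean. HPS4, NBEAL2 and UNC13D dip at 6 h, and the 72 h libraries of NBEAL2 lie apart at 31.2 and 64.3 CPM.

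RAB27A and RAB27B, the GTPases that bring granules to the plasma membrane, moved in opposite directions by 72 h. RAB27A (ENSG00000069974, GRCh38 chromosome 15, 55202966 to 55319113, minus strand) measured 205 and 153 CPM at 0 h (replicate 1 first, here and below), 227 and 221 at 0.5 h, 206 and 219 at 1.5 h, then 188 and 177 at 3 h. It then measured 93.5 and 99.7 CPM at 6 h, 85.4 and 87.6 at 24 h, 73.6 and 74.1 at 48 h, then 75.3 and 61.5 at 72 h. All libraries from 6 h on lay below both 0 h libraries, and those of the first 3 h did not. The log2 fold change against 0 h was -0.89 at 6 h (SE 0.13, adjusted p = 3.329e-05) and -1.39 at 72 h (SE 0.13, adjusted p = 5.116e-07, edgeR quasi-likelihood test), and most of the fall came in the step from 3 to 6 h, at -0.92 (adjusted p = 5.35e-05). In that step 7 of the 10 genes were called, 3 higher and 4 lower, with 41.2% of all genes (19% higher and 22.1% lower).

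The fall was unequal between RAB27A transcripts. RAB27A-212, whose start is printed above, went from 67.9 ± 0.54 TPM (a level per transcript length, SD, n = 2) at 0 h to 39.8 ± 3.33 at 72 h. RAB27A-201 stood at 67.2 and 41.2 TPM at 0 h, at 14.1 and 13.1 at 6 h and at 21.3 and 17.1 at 72 h. The shorter RAB27A-207 went from 16.4 and 18.2 TPM at 0 h to 0.519 and 0.735 at 72 h. The 72 h libraries of these 3 transcripts lie below their 0 h libraries, and the shares are those the quantification assigned to transcripts that overlap. Protein-coding transcripts held 91.59 to 97.78% of the gene's TPM in every library.

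RAB27B (ENSG00000041353, chromosome 18, 54717860 to 54895516, plus strand), the other Rab27 isoform, dipped at 3 h and was higher at 72 h. Its level was 13.3 and 8.56 CPM at 0 h, 15 and 14.6 at 0.5 h, 10.7 and 13.3 at 1.5 h, then 7.76 and 6.13 at 3 h. Later it was 16 and 15.9 CPM at 6 h, 10.2 and 8.16 at 24 h, 15 and 14 at 48 h, then 24.3 and 16.1 at 72 h. In CPM the 3 h libraries are below and the 0.5, 6, 48 and 72 h libraries above both at 0 h, with those at 1.5 and 24 h overlapping them. In TPM the 48 h libraries, at 4.92 and 4.30, lay below those at 0 h, at 5.04 and 6.04. The 72 h libraries, at 8.48 and 7.38 TPM, lay above them, and those at 0.5 and 6 h did not. Its log2 fold change was -0.65 at 3 h (SE 0.23, adjusted p = 0.03498) and 0.89 at 72 h (SE 0.22, adjusted p = 0.003526, edgeR), and the steps from 3 to 6 h (1.20, adjusted p = 0.0008031) and from 6 to 24 h (-0.80, adjusted p = 0.008063) were both called. The 3 h call was lost without 0 h replicate 1 (-0.30) or 3 h replicate 2 (-0.49), and with only the 2 time points fitted (-0.67). Without 72 h replicate 1 the 72 h call was lost (0.56). At 24 h RAB27B was called lower with TPM-derived counts (-0.78, adjusted p = 0.004835) and with GC trends removed (-0.48, adjusted p = 0.01751), against -0.26 without a call.

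On the per-length TPM scale RAB27A exceeded RAB27B 30.8 ± 8.25 times at 0 h, 68.0 ± 5.66 times at 3 h and 9.03 ± 0.044 times at 72 h (SD, n = 2). RAB27B thus made up 3.25 ± 0.844% of the TPM of the pair at 0 h and 9.98 ± 0.046% at 72 h, so RAB27A was the more abundant at all times.

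UNC13D (ENSG00000092929, chromosome 17, 75827225 to 75844717, minus strand), the Rab27 effector that primes granule fusion, was lower than at 0 h from 3 h on. It measured 238 and 298 CPM at 0 h, 205 and 205 at 0.5 h, 202 and 197 at 1.5 h, then 218 and 162 at 3 h. The later values were 83.1 and 79.3 CPM at 6 h, 133 and 143 at 24 h, 160 and 163 at 48 h, then 138 and 175 at 72 h. Every treated library lay below both 0 h libraries, and those at 6 h were the lowest. The log2 fold change was -1.72 at 6 h (SE 0.15, adjusted p = 2.461e-07) and -0.78 at 72 h (SE 0.14, adjusted p = 0.0003617), with a called rise of 0.76 from 6 to 24 h (adjusted p = 0.0005792, edgeR). Its call at 3 h (-0.50, adjusted p = 0.01263, edgeR) was lost without 0 h replicate 2 (-0.33) or 3 h replicate 2 (-0.30). A fit of only the 2 time points (-0.51) lost it too. Its protein-coding transcript UNC13D-201 went from 56.1 and 63.9 TPM at 0 h to 12.8 and 9.27 at 6 h.

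Among 14 regulators and effectors of Rab27, 7 were higher and 3 lower at 72 h than at 0 h, 71.4% of the list against 58.6% of all genes. The largest rise was that of SYTL5, a synaptotagmin-like Rab27 effector, from 0.982 ± 0.478 CPM at 0 h through 7.01 ± 0.0303 at 24 h to 38.02 ± 6.28 at 72 h (log2 fold change 5.26, adjusted p = 3.536e-10, edgeR). MLPH (melanophilin), which links RAB27A to myosin Va, went from 1.76 ± 0.0297 to 31.5 ± 2.29 CPM (4.16, adjusted p = 1.68e-09), and SYTL3, another synaptotagmin-like effector, from 0.208 ± 0.207 to 2.42 ± 0.992 CPM (adjusted p = 5.88e-05). These 3 effectors were higher at 72 h, when RAB27A was lower than at 0 h.

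MYRIP, which links Rab27 to other myosins, instead peaked early, at 0.0943 ± 0.00317 CPM at 0 h, 6.86 ± 0.163 at 6 h (adjusted p = 4.221e-08, edgeR) and 0.468 ± 0.0872 at 72 h. TBC1D10A, a GTPase-activating protein that switches Rab27 off, was also highest at 6 h, at 29.3 ± 0.911 CPM against 7.11 ± 1.55 at 0 h (2.04, adjusted p = 1.172e-07), and remained at 16.7 ± 2.24 CPM at 72 h (1.23, adjusted p = 1.676e-05). EXPH5, a further Rab27 effector, fell by 1.03 on the log2 scale at 72 h, from 47.3 ± 6.50 to 23.1 ± 3.39 CPM (adjusted p = 8.973e-06).

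**Figure D3:**
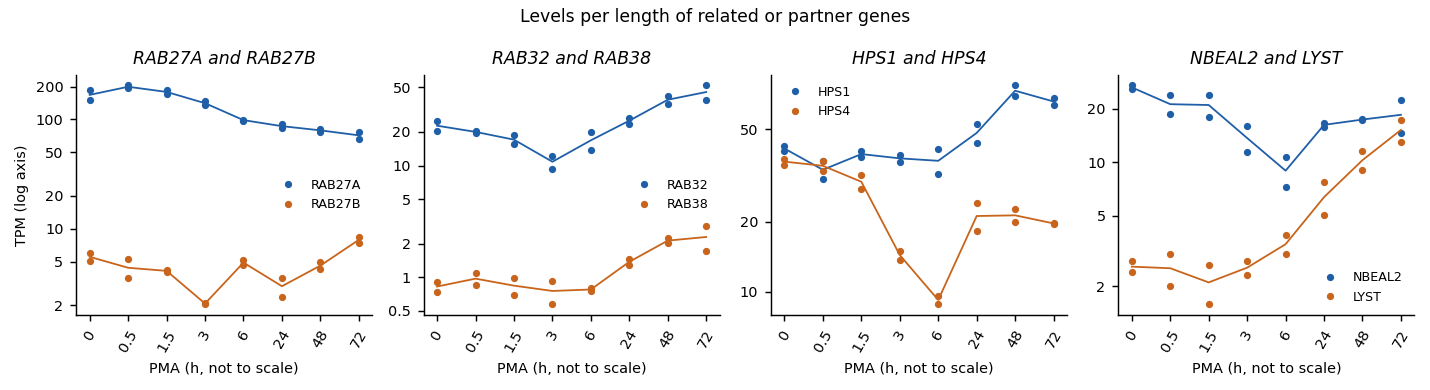
TPM (log axis, a scale per panel) of 4 gene pairs against time of PMA treatment (h, spaced evenly), with a point per library and lines through the means. RAB27A and RAB27B converge from a ratio of 30.8 to 9.03, HPS4 drops away from HPS1 from 3 h on, and LYST approaches NBEAL2 by 72 h.

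HPS1 and HPS4, the 2 subunits of BLOC-3, were near each other at 0 h and then parted. HPS4 (ENSG00000100099, chromosome 22, 26443423 to 26483837, minus strand) measured 67.9 and 73.5 CPM at 0 h, 68.4 and 65 at 0.5 h, 54 and 55.6 at 1.5 h, then 29 and 28 at 3 h. It reached 18.5 and 21.2 CPM at 6 h and came back in part, to 40.5 and 38.5 at 24 h, 38.4 and 37.2 at 48 h, then 33.1 and 35.5 at 72 h. From 1.5 h on every library lay below both 0 h libraries. The log2 fold change was -1.31 at 3 h (SE 0.09, adjusted p = 6.884e-08), -1.83 at 6 h (SE 0.09, adjusted p = 1.147e-09) and -1.05 at 72 h (SE 0.09, adjusted p = 2.209e-07), and the rise of 0.99 from 6 to 24 h was called (adjusted p = 8.604e-07, edgeR). The call at 1.5 h (-0.37, adjusted p = 0.01263, edgeR) was lost without 1.5 h replicate 1, 1.5 h replicate 2 or 0 h replicate 2. TPM-derived counts (-0.20) and a fit of only the 2 time points (-0.36) lost it too. With protein-coding transcripts only, the 1.5 h value was 0.06 (adjusted p = 0.778, edgeR).

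HPS1 (ENSG00000107521, chromosome 10, 98416198 to 98446947, minus strand) was called higher at 48 and 72 h. Its values were 37 and 42.1 CPM at 0 h, 31.7 and 30.4 at 0.5 h, 34.9 and 33.6 at 1.5 h, then 46.9 and 36.8 at 3 h. They were 38.1 and 36.2 CPM at 6 h, 45.1 and 44.2 at 24 h, 66.6 and 65.5 at 48 h, then 55.6 and 61 at 72 h. The libraries at 0.5 and 1.5 h lay below both at 0 h, those at 3 and 6 h overlapped them, and those from 24 h on lay above. Its log2 fold change was called at 48 h (0.74, SE 0.11, adjusted p = 6.083e-05) and 72 h (0.56, SE 0.11, adjusted p = 0.0005791), and the step from 24 to 48 h was called too (0.56, adjusted p = 0.003364, edgeR). HPS1 was called lower at 6 h with scaling to total counts (-0.46, adjusted p = 0.00158) and at 0.5 h without 0 h replicate 1 (-0.44, adjusted p = 0.02844). In the step from 24 to 48 h, HPS1 and LYST were the 2 of the 10 genes called, both higher, with 15% of all genes called and 8.88% higher. Protein-coding transcripts held just 22.43 to 32.21% of the TPM of HPS1, and its processed transcript ENST00000465957 went from 10.1 and 10.97 TPM at 0 h to 19.1 and 17.9 at 72 h.

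On the TPM scale the ratio of HPS1 to HPS4 went from 1.14 ± 0.091 at 0 h and 2.61 ± 0.310 at 3 h up to 3.95 ± 0.441 at 6 h (SD, n = 2). It was 3.34 ± 0.112 at 72 h. The ratios from 3 h on lie well outside the spread at 0 h. They count all transcripts of each gene, and protein-coding ones held 19.41 to 50.77% of the TPM of HPS4. HPS4-201, a protein-coding transcript at 6.51 and 5.58 TPM at 0 h, was listed at 0 in both 6 h libraries.

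RAB32 (ENSG00000118508, chromosome 6, 146543693 to 146554965, plus strand), a GTPase that BLOC-3 activates, dipped at 3 h and rose later. It measured 11.3 and 15.4 CPM at 0 h, 11.6 and 11 at 0.5 h, 10.8 and 9.57 at 1.5 h, then 8.88 and 6.26 at 3 h. Then it measured 13.7 and 10.6 CPM at 6 h, 15.7 and 15.5 at 24 h, 22.8 and 20.8 at 48 h, then 29.2 and 21.5 at 72 h. The libraries at 1.5 and 3 h were below and those from 24 h on above both 0 h libraries. Its log2 fold change was -0.82 at 3 h (SE 0.20, adjusted p = 0.005292), 0.70 at 48 h (SE 0.20, adjusted p = 0.007997) and 0.92 at 72 h (SE 0.20, adjusted p = 0.001169, edgeR). The 3 h call was lost without 0 h replicate 2 (-0.58) or 3 h replicate 2 (-0.59), and the 48 h call without 0 h replicate 1 (0.50) or 48 h replicate 1 (0.64), while the 72 h call held in every fit run.

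RAB38 (ENSG00000123892, chromosome 11, 88113242 to 88175467, minus strand), the close relative of RAB32, had the lowest TPM of the 10 at 0 and 72 h, with 17 to 73 reads a library. It measured 0.583 and 0.805 CPM at 0 h, 0.687 and 0.889 at 0.5 h, 0.812 and 0.624 at 1.5 h, then 0.905 and 0.554 at 3 h. The later values were 0.726 and 0.885 CPM (6 h), 1.03 and 1.12 at 24 h, 1.74 and 1.70 at 48 h, then 2.03 and 1.28 at 72 h. The libraries from 24 h on were above both 0 h libraries. RAB38 was called higher at 48 h (1.31, SE 0.32, adjusted p = 0.00315) and 72 h (1.26, SE 0.32, adjusted p = 0.003738, edgeR), and the 72 h call was lost without 72 h replicate 1 (0.88, adjusted p = 0.05505). RAB32 exceeded RAB38 27.5 ± 0.269 times in TPM at 0 h and 20.3 ± 2.97 times at 72 h.

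Of 17 subunits of BLOC-1, BLOC-2 and AP-3 and partners of RAB32 and RAB38, 4 were higher and 7 lower at 6 h (64.7% called, against 57.2% of all genes). At 24 h, 11 were higher and 1 lower (31.7% and 26.6% of all genes), and 5 were higher and 2 lower at 72 h (41.2%, against 58.6% of all genes). ANKRD27 (VARP), an effector of RAB32 and RAB38, was the lower gene with the largest change. It went from 148 ± 0.0051 CPM at 0 h to 75.6 ± 9.71 at 3 h, 42.2 ± 0.405 at 24 h and 34.7 ± 1.88 at 72 h (log2 fold change -2.09, adjusted p = 3.416e-10, edgeR). BLOC1S2, a BLOC-1 subunit, rose from 16.7 ± 1.99 to 36.9 ± 7.0 CPM at 72 h (1.14, adjusted p = 3.046e-06). At 72 h ANKRD27 was thus lower than at 0 h, while RAB32 and RAB38 were higher.

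LYST (ENSG00000143669, chromosome 1, 235661041 to 235883640, minus strand), the BEACH-domain protein affected in Chediak-Higashi syndrome, had the widest range of the 10 genes. It measured 6.48 and 5.09 CPM at 0 h, 8.16 and 6.88 at 0.5 h, 7.14 and 7.01 at 1.5 h, then 8.66 and 7.86 at 3 h. It went on to 18.2 and 16.7 CPM at 6 h, 23.7 and 20.2 at 24 h, 36.3 and 35.1 at 48 h, then 57.8 and 48.7 at 72 h. All treated libraries lay above both 0 h libraries. The log2 fold change was 1.59 at 6 h (SE 0.15, adjusted p = 5.398e-07), 1.92 at 24 h (SE 0.15, adjusted p = 8.805e-08), 2.62 at 48 h (SE 0.15, adjusted p = 3.831e-09) and 3.20 at 72 h (SE 0.15, adjusted p = 4.908e-10, edgeR). These 4 calls held in every fit run. The call at 3 h (0.52, adjusted p = 0.01307, edgeR) was lost without 3 h replicate 1 (0.44) or 0 h replicate 2 (0.35). Scaling to total counts (0.23), TPM-derived counts (0.26) and a fit of only the 2 time points (0.49) lost it too. In TPM the mean of LYST was 2.58 at 0 h and 2.55 at 3 h.

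The full-length coding transcript LYST-201, 13480 nt long and starting at the second LYST stretch printed above, went from 0.478 and 0.3 TPM at 0 h to 4.02 and 4.03 at 72 h. LYST-211, a processed transcript that starts near the first LYST stretch, with its AP-1 match, was listed at 0 in both 0 h libraries and at 3.17 and 1.65 TPM at 72 h. The annotated 5′ end of LYST-206, a shorter processed transcript, also lies near that stretch. LYST-206 held 53.29 and 55.65% of the gene's TPM at 0 h. It went from 1.28 and 1.54 TPM at 0 h to 0.557 and 0.517 at 6 h, then to 4.79 and 3.21 at 72 h. LYST-205, which shares its annotated start with LYST-211, went the other way, from 0.278 and 0.265 TPM to 0 and 0.131. By log2 CPM over the 16 libraries, the genes most like LYST among 11268 compared were PTGS2 (Pearson's r = 0.9925), PCNX1 (0.9916) and IL24 (0.9911). The points share 8 time points and their libraries, so these values are a description.

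NBEAL2 (ENSG00000160796, chromosome 3, 46979683 to 47009703, plus strand), needed for alpha granules and affected in gray platelet syndrome, was lower at 6 h, and its calls at other times depended on the fit. Its values were 56.6 and 64.9 CPM at 0 h, 52.1 and 42.5 at 0.5 h, 45.9 and 41.1 at 1.5 h, then 50.6 and 33.2 at 3 h. They were 24.2 and 23.1 CPM at 6 h, 42.6 and 49.1 at 24 h, 46.6 and 49 at 48 h, then 31.2 and 64.3 at 72 h. The libraries from 0.5 to 48 h lay below both 0 h libraries, and at 72 h they overlapped them. The log2 fold change was -1.36 at 6 h (SE 0.27, adjusted p = 0.0005415), with a called rise of 0.96 from 6 to 24 h (adjusted p = 0.007495), and -0.35 at 72 h (SE 0.26, adjusted p = 0.2588, edgeR). Without 72 h replicate 2 the 72 h value was -0.96 (adjusted p = 0.001972). With TPM-derived counts NBEAL2 was called lower at 3 h (-0.65), 24 h (-0.57), 48 h (-0.61) and 72 h (-0.55) as well. It was also called lower with no low-count filter from 1.5 h on, with total counts at 3 and 24 h, with only the 2 time points at 24 h, and at 3 h without 3 h replicate 1 or either 72 h library.

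The ratio of NBEAL2 to LYST in TPM was 10.2 ± 0.670 at 0 h, 2.57 ± 0.268 at 6 h and 1.28 ± 0.606 at 72 h (SD, n = 2), where the 2 genes no longer differed beyond their spread. This ratio counts all transcripts. Protein-coding ones held 30.75 to 51.42% of the TPM of NBEAL2 and 10.85 to 40.3% of that of LYST. Of 6 other BEACH-domain genes tested, 5 were higher and 1 lower at 72 h, with 58.6% of all genes called (31.7% higher and 26.9% lower), and 1 of the 5, NBEAL1, had an adjusted p of 0.04913 in edgeR. WDFY4 went from 0.0483 ± 0.0683 CPM at 0 h, at most 3 reads a library, to 6.96 ± 0.438 CPM at 72 h (adjusted p = 3.676e-08, edgeR). NBEA, expressed in neurons and needed for membrane trafficking there, went from 0.221 ± 0.0519 to 1.25 ± 0.0449 CPM (log2 fold change 2.49, adjusted p = 6.876e-05). NSMAF was the lower gene, at 62.0 ± 5.74 CPM at 0 h and 47.9 ± 4.72 at 72 h (-0.37, adjusted p = 0.004989).

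VPS33B (ENSG00000184056, chromosome 15, 90998416 to 91022603, minus strand), the alpha-granule sorting protein, was lower at 6 h and higher at 24 h than at 0 h, and its values at every time depend on how reads are assigned. It measured 15.8 and 20.5 CPM at 0 h, 14.2 and 14.8 at 0.5 h, 11.8 and 11.1 at 1.5 h, then 9.73 and 8.09 at 3 h. Thereafter it measured 8.15 and 8.60 CPM at 6 h, 28.1 and 28.4 at 24 h, 24.8 and 20.7 at 48 h, then 22.2 and 20.7 at 72 h. The libraries up to 6 h were below and the later ones above both 0 h libraries. The log2 fold change was -1.03 at 3 h (SE 0.14, adjusted p = 5.728e-05), -1.12 at 6 h (SE 0.15, adjusted p = 1.466e-05) and 0.64 at 24 h (SE 0.14, adjusted p = 0.001298), with 1.75 between 6 and 24 h (adjusted p = 3.335e-07, edgeR). In the step from 6 to 24 h, 5 of the 10 genes were called, 4 higher and 1 lower, with 56.6% of all genes (30.8% higher and 25.8% lower).

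VPS33B shares 2091 exonic bases on the same strand with ENSG00000284946, a gene annotated by readthrough transcripts, and the deposited counts split reads between both. The readthrough gene measured 38.6 and 33.1 CPM at 0 h, 32.3 and 32.4 at 6 h, 14.1 and 12.6 at 24 h, then 17.1 and 12.9 at 72 h. The sum of both was 54.4 and 53.7 CPM at 0 h, 40.4 and 41.0 at 6 h, 42.2 and 41.0 at 24 h, then 39.3 and 33.6 at 72 h. With the reads of both added, the log2 fold change of VPS33B was -0.38 at 24 h (adjusted p = 0.002474), -0.47 at 48 h (adjusted p = 0.0004729) and -0.57 at 72 h (adjusted p = 9.106e-05, edgeR), the opposite of its own direction. With TPM-derived counts the 24 h value was 0.23 (adjusted p = 0.4061). Before that, the summed reads gave -0.07 at 1.5 h (adjusted p = 0.6478), -0.31 at 3 h and -0.41 at 6 h, the last 2 still called but smaller than for VPS33B alone, and at 0.5 h the sum lay above both 0 h libraries, at 61.1 and 56.4 CPM. The call of VPS33B at 1.5 h (-0.66, adjusted p = 0.006839, edgeR) was also lost without 0 h replicate 2 (-0.46) or 1.5 h replicate 2 (-0.62). TPM-derived counts (-0.51), a fit of only the 2 time points (-0.65) and protein-coding transcripts only (-0.58) lost it too.

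**Figure D4:**
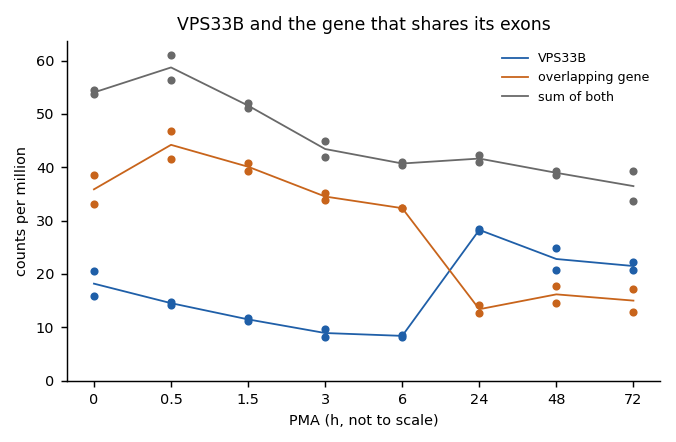
Level in CPM (vertical axis) of VPS33B, of the readthrough gene that shares its exons and of their sum, against time of PMA treatment (h, spaced evenly), with a point per library and lines through the means. VPS33B goes up to 28.1 and 28.4 CPM at 24 h while the overlapping gene goes down to 14.1 and 12.6, and the sum at 24 h is near its 6 h level.

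VIPAS39, the partner of VPS33B, was also lowest at 6 h. It measured 14.8 ± 0.766 CPM at 0 h, 9.16 ± 0.731 at 3 h, 6.49 ± 0.117 at 6 h (log2 fold change -1.19, adjusted p = 5.983e-07, edgeR) and 14.9 ± 0.217 at 24 h. Among the 7 tested partners of VPS33B and subunits of HOPS, the tether for fusion of late endosomes and lysosomes, 5 were lower and 1 higher at 6 h (29.4% and 27.8% of all genes). All 7 were called higher at 24 h than at 6 h, as were 30.8% of all genes. At 72 h, 5 were higher than at 0 h and none lower (71.4%, against 58.6% of all genes). VPS18, a core subunit, rose most, from 23.3 ± 1.87 to 57.9 ± 0.364 CPM (1.32, adjusted p = 6.236e-07).

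**Figure D5:**
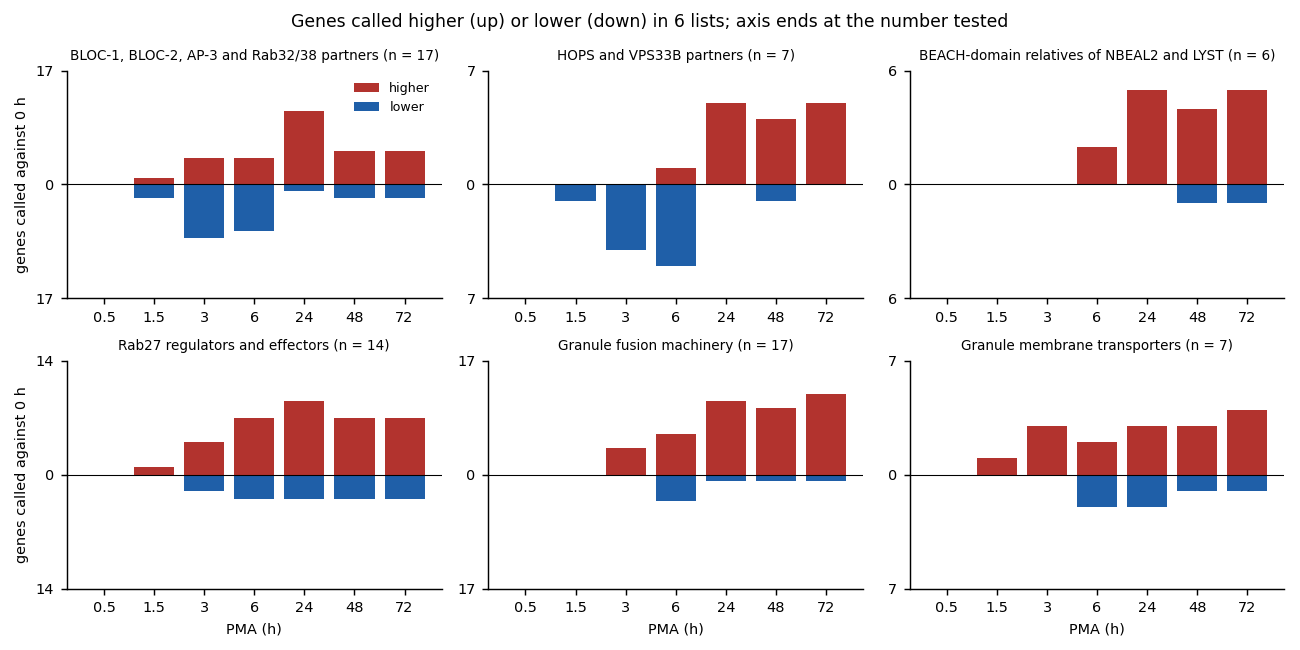
Number of genes called higher (red, upward) or lower (blue, downward) against 0 h in 6 lists of related genes at 7 times of PMA treatment, with each vertical axis ending at the number tested. The HOPS list has 5 lower genes at 6 h and none at 72 h, and the fusion list has 12 higher genes at 72 h.

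Of 17 genes of the granule fusion machinery, 12 were higher and 1 lower at 72 h (76.5%, against 58.6% of all genes). UNC13A, a relative of UNC13D best known from neurons, went from 2.59 ± 0.0239 CPM at 0 h through 3.31 ± 0.481 at 24 h to 11.9 ± 0.981 at 72 h (log2 fold change 2.20, adjusted p = 3.764e-07, edgeR), the reverse of the direction of UNC13D. VAMP2, a vesicle SNARE, was the lower gene, at 40.2 ± 4.84 and 24.4 ± 4.55 CPM (-0.72, adjusted p = 0.0005474).

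Granule membrane transporters and membrane proteins moved in both directions, with 4 of 7 tested genes higher and 1 lower at 72 h (71.4%, against 58.6% of all genes). CD63, a tetraspanin of dense granules and lysosomes, rose from 171 ± 27.1 CPM at 0 h to 860 ± 35.7 at 24 h, and was 729 ± 62.0 at 72 h (2.09, adjusted p = 5.375e-09, edgeR). SLC18A2 (VMAT2), which loads serotonin into dense granules, was low at 0 h, at 0.717 ± 0.331 CPM, and was called lower at 24 h (0.127 ± 0.0032 CPM, adjusted p = 0.0008429) and 72 h (0.304 ± 0.121 CPM, adjusted p = 0.03195). SLC17A9, the vesicular nucleotide transporter, stayed at or below 0.571 ± 0.302 CPM, its mean at 1.5 h, where it was called higher (adjusted p = 0.02986). Over the 6 lists, 38 of the 68 tested genes were higher and 8 lower at 72 h, or 67.6% called against 58.6% of all genes.

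Levels can be compared between genes only per length. At 0 h the order of mean TPM (SD, n = 2) was UNC13D at 197 ± 17.1, RAB27A at 168 ± 24.1, HPS1 at 41.3 ± 1.60, HPS4 at 36.3 ± 1.47, NBEAL2 at 26.3 ± 0.926, RAB32 at 22.7 ± 3.26, VPS33B at 21.4 ± 0.216, RAB27B at 5.54 ± 0.701, LYST at 2.58 ± 0.259 and RAB38 at 0.827 ± 0.127. UNC13D and RAB27A, NBEAL2 and RAB32, and RAB32 and VPS33B lay within 1 SD of each other's range. At 72 h UNC13D still led at 138 ± 25.3 TPM, followed by RAB27A at 71.5 ± 6.68, HPS1 at 65.8 ± 2.85 and RAB32 at 45.5 ± 9.33. Behind them came VPS33B at 21.0 ± 6.85, HPS4 at 19.7 ± 0.197, NBEAL2 at 18.4 ± 5.38 and LYST at 15.2 ± 2.99, which neighbour by neighbour did not differ beyond their spread. RAB27B at 7.93 ± 0.778 and RAB38 at 2.30 ± 0.794 TPM were last. HPS1 and RAB27A, apart at 0 h, overlapped in spread at 72 h. LYST had moved into the range of NBEAL2. Its 72 h libraries, at 17.3 and 13.0 TPM, stayed below those of HPS4, at 19.5 and 19.8 TPM.

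Calls between neighbouring times are read against the share of all genes, which was highest in the steps up to 6 h (41.2%) and up to 24 h (56.6%). The step from 1.5 to 3 h held 2 calls, RAB27B and HPS4, both lower (25.1% of all genes, 12.1% lower), and 1 without 1.5 h replicate 2. From 3 to 6 h, RAB27A, NBEAL2, HPS4 and UNC13D fell, and RAB27B, RAB32 and LYST rose. From 6 to 24 h, RAB27B fell, and NBEAL2, HPS4 and UNC13D rose, and VPS33B rose on its own counts, while the sum with its overlapping gene measured 40.4 and 41.0 CPM, then 42.2 and 41.0. Without 24 h replicate 2 the count was 3. From 0.5 to 1.5 h edgeR called none of the 10 (5.77% of all genes) and DESeq2 called none. An unadjusted p under 0.05 in edgeR was found for 2 of the 10 and for 2784 of the 17559 genes tested. From 48 to 72 h edgeR again called none of the 10 (1.47% of all genes) and DESeq2 called 1. Here 2 of the 10, and 2098 of the 17559 genes tested, had an unadjusted p under 0.05 in edgeR.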

How the data were processed

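RNA sequencing of 16 K562 libraries was used as deposited. Per the labels' protocols, RNA was extracted on columns with DNase treatment and libraries were made after ribosomal RNA depletion. The submitters' processing notes name Trim Galore 0.4.3 and Salmon, along with HISAT2 2.1.0 and SAMtools 1.9, without roles, and list both hg19 and hg38; the index and build behind these tables are not given in the sources used here. Per the file headers, the authors deposited estimated counts (expected reads per transcript) and TPM (per effective length) for 177456 transcripts.

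Of these, 167027 (94.12%) matched GENCODE 29 (GRCh38), whose coordinates are used. Unmatched transcripts held 3.014 to 3.754% of reads and were left out. Estimated counts were summed per gene, rounded, filtered with edgeR's filterByExpr and fitted with edgeR 4.0.16 in R 4.3.3 (TMM factors 0.854 to 1.139, all 8 time points in 1 quasi-likelihood fit, common biological coefficient of variation 0.123, prior count 0.125), with Benjamini-Hochberg adjustment over 17559 genes per contrast and a threshold of 0.05. An exact permutation test of 2 libraries against 2 was not used, because it cannot reach that threshold. CPM is per TMM-scaled library. Values are mean ± SD (n = 2). The test was checked on simulated counts. Salmon splits reads between overlapping transcripts, which touches VPS33B most. Reads of overlapping genes were not reassigned, and whether counting used strand is not given in the sources used here.

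The members, the 6 lists, the markers and the tests were chosen with earlier results of these data known. From each list the text names the genes with the largest and smallest log2 fold change at 72 h and any gene called with at least 2 on that scale at some time; for the member with the widest range it names the 3 genes with the highest r (mean CPM at least 5, pseudocount 0.5). NSF was not matched, and WDR81 and SLC35D3, with at most 2 and 5 reads, were not tested. Alternatives were other size factors, filters, DESeq2 1.42.0, TPM-derived counts, the replicate number as a block, removal of GC trends, fits of 2 time points, leaving out each library, and 2 chosen after seeing the data: protein-coding transcripts only, and VPS33B with its overlapping gene.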

Additional observations from a re-analysis of the deposited data

Results flagged for a closer look

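RAB27B, RAB32 and VPS33B were each called in opposite directions at 2 times against 0 h, and the difference between those times was tested in the same fit. The times were picked by those calls, so these tests largely restate them and are not separate evidence. RAB27B at 72 h exceeded its 3 h level by 1.54 on the log2 scale (adjusted p = 5.581e-05, edgeR quasi-likelihood test), and all of its 72 h libraries were above those at 3 h. RAB32 at 72 h exceeded its 3 h level by 1.74 (adjusted p = 6.367e-06). In that contrast 58.2% of all genes were called. VPS33B at 24 h exceeded its 6 h level by 1.75 (adjusted p = 3.335e-07, with 56.6% of all genes called), and over the same step the readthrough gene that shares its exons went from 32.3 and 32.4 to 14.1 and 12.6 CPM.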

How the results depend on the processing

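Of 1897 fold changes recomputed under the alternatives, 1805 kept their direction and side of the threshold or were called in neither fit, 29 lost and 59 gained a call, and 4 reversed. Of these, 1120 came from fits without 1 library, most often of a time not compared, which enters only through the shared fit. Of the 777 others, 727 stayed the same, 12 lost and 34 gained a call, and 4 reversed. VPS33B reversed at 24 h (-0.38), 48 h (-0.47) and 72 h (-0.57) with the reads of its overlapping gene added, and HPS4 at 1.5 h (0.06) with protein-coding transcripts only. Of 377 counts of called genes, 339 stayed within 1.5 times the reported one, as did 128 of the 153 from fits that left out no library. Against 0 h, the count at 0.5 h was 1 with no low-count filter. At 1.5 h it was 4 with no filter, 0 with TPM-derived counts, 0 with only the 2 time points fitted and 1 with protein-coding transcripts only, and at 3 h it was 3 with only the 2 time points. For 1.5 h against 0.5 h it was 1 with scaling to total counts, with GC trends removed, with only the 2 time points, and with the block and GC removal together. For 3 h against 1.5 h it was 5 with total counts, 6 with GC trends removed and 8 with the block and GC removal. For 24 h against 6 h it was 8 with total counts. For 48 h against 24 h it was 4 with no filter, 1 with TPM-derived counts, 4 with GC trends removed, 5 with the block and GC removal and 6 with only the 2 time points. For 72 h against 48 h it was 1 with no filter, at least 10 reads in every library, DESeq2, GC trends removed, the replicate block, and the block with GC removal. The cause of these shifts was not tested.

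Leaving out each library in turn, the counts against 0 h were 0 to 6 at 0.5 h, 0 to 4 (1.5 h), 3 to 7 (3 h), 6 to 7 (6 h), 5 to 5 (24 h), 6 to 8 (48 h) and 6 to 9 (72 h). They ran from 0 to 0 for 1.5 h against 0.5 h, 1 to 3 for 3 h against 1.5 h, 5 to 7 for 6 h against 3 h, 3 to 7 for 24 h against 6 h, 1 to 3 for 48 h against 24 h, 0 to 1 for 72 h against 48 h and 9 to 10 over the course. The 0.5 h count was 6 without 0 h replicate 1. The 1.5 h count was 4 and 1 on leaving out replicate 1 of 0 h and of 1.5 h, and 0 without replicate 2 of either time, and the 3 h count was 3 without replicate 2 of 0 h or of 3 h. For neighbouring times it was 1 without 1.5 h replicate 2 (3 h against 1.5 h), 3 and 1 without 24 h replicate 2 (against 6 h and 48 h), and 1 for 72 h against 48 h without either 0 h library or 72 h replicate 2. Where a library was left out, the lone one left was assumed to vary like the other groups. The share of all genes called is not given here for these or the other alternative fits, so their counts cannot be set against it.

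The replicate numbers were taken as numbers only: deviations of replicate 1 correlated between time points at -0.288 to 0.596, over 0.1 in 24 of 28 pairs. With the replicate block, 8 of the 10 genes were called at 72 h, 7 at 6 h and 1 for 72 h against 48 h, RAB27B gaining a call at 6 h (0.57, adjusted p = 0.02278). RAB38, at 17 to 73 reads, is the gene whose depth limits its values most.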
